A study of Drosophila melanogaster with 3 samples.

Results

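The 863 regions described here are peaks of caup-eGFP whose summit lay at a divergent promoter pair. They were chosen from the 6056 peaks of the optimal set, of which they made up 14.25% (Wilson 95% interval 13.39 to 15.15, counting error only). A peak was a member when the transcription start site (TSS) nearest to its summit belonged to a protein-coding gene, lay at most 1000 bp away, and had a TSS of another protein-coding gene on the opposite strand within 500 bp. No signal value entered this rule. The other promoter summits, used for comparison, were 2550 summits within 1000 bp of a protein-coding TSS that had no such partner, called single-direction summits below. The members made up 25.29% of these protein-coding promoter summits together (Wilson interval 23.86 to 26.77), and 24.55%, 27.24% and 24.88% in replicates 1, 2 and 3 (25.6% ± 1.47, SD, n = 3). A further 290 summits were nearest to a non-coding TSS and 2353 lay over 1000 bp from any TSS.

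Chromatin immunoprecipitation and sequencing (ChIP-seq) was done with an antibody against GFP on whole Drosophila melanogaster embryos of mixed sex, aged 0 to 24 h. They came from 1 transgenic line that stably carries caup with GFP at its C terminus, and all 3 biological replicates form 1 group. Caup (caupolican) is a homeodomain protein of the Iroquois family. The promoter that drives the fusion is not given in the sources used here, an untagged strain is not analysed here, and whole embryos do not show in which cells a summit was occupied.

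The deposited lists give no read counts, and library depth is therefore unknown. The signal value of each peak is the authors' own enrichment statistic, on a scale that is not given, and is used only within 1 list. For replicate values, the rule was applied to the 6056 strongest regions of each replicate's own list, with that replicate's own summits. This gave 900, 925 and 822 member summits in replicates 1, 2 and 3. With 3 replicates, an exact two-sided sign-flip permutation test of the differences within replicates cannot give a p below 0.25. No difference below can therefore pass a threshold of 0.05, and higher or lower gives the direction seen in the replicates.

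In the compact fly genome many genes lie head to head, with start sites on opposite strands and a short stretch of shared promoter sequence between them. Such pairs often hold housekeeping genes, which are active in most cells and tend to lack a TATA box. Their promoters are known for the DNA replication-related element (DRE), the site of DREF, for the element Ohler 1, the site of M1BP, and for sites of the boundary factor BEAF-32.

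The sequence between the 2 start sites is shown for member pairs with strong peaks and a gap short enough to read whole, since this is the stretch that the 2 promoters share. It was read from the release 6 genome (dm6), plus strand, 5′ to 3′, leaving out the start bases themselves, and the first gene of each pair is transcribed to the left. Capitals mark DRE (TATCGATA) or Ohler 1 (GGTCACAC, on the other strand GTGTGACC). The first 5 pairs had the strongest peaks among the pairs read here with a gap of at most 200 bp and no annotated exon inside it, and the last 4 were taken for DRE or Ohler 1 in the gap.
Chro and Ssl1 (chr3L:22878985-22879088): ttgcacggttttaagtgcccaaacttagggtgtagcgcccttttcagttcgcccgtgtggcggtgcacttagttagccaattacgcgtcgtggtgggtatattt
RpS27 and Nup37 (chr3R:25247515-25247657): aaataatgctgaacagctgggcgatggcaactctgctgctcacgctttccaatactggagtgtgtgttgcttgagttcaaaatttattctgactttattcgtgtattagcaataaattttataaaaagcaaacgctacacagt
CG11309 and CG7632 (chr3L:21304659-21304696): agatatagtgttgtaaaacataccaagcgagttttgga
Ripalpha and RpL7 (chr2L:10200975-10201003): cccactccgcggccaGTGTGACCgtttgg
Nelf-E and RpL14 (chr3L:8600880-8601005): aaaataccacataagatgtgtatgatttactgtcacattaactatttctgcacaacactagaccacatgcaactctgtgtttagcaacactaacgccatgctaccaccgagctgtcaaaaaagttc
Ttc1 and CG14882 (chr3R:16443008-16443206): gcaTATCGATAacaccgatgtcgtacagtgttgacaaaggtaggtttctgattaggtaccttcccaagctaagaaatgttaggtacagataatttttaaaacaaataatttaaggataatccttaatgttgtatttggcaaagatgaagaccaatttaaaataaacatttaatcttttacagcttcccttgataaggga
Rab8 and Usp32 (chr3L:19871079-19871138): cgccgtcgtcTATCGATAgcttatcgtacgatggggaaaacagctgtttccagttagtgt
GatA and P5cr (chr3R:19028858-19028930): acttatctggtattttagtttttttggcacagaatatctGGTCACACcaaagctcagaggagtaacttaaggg
l(2)34Fd and Rab14 (chr2L:14355086-14355144): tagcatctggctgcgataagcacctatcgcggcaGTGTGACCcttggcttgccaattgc

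Of the first 5 gaps, 4 held neither element. The exception was the gap between Ripalpha and RpL7, with 1 copy of Ohler 1. The summit lay inside the printed gap at Nelf-E and RpL14, at Ttc1 and CG14882 and at Rab8 and Usp32. At the other pairs it lay beyond a start. For l(2)34Fd and Rab14 it was 620 bp beyond the start of Rab14, so the element printed for that pair is not under its summit.

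Caup-eGFP summits lay mostly in the gap between the 2 starts rather than inside either gene. Among members, 834 (96.64%) were at head-to-head pairs and 29 at pairs whose transcripts overlap at their starts; of all annotated pairs 96.21% were head to head. At head-to-head pairs 601 of 834 summits (72.06%, Wilson interval 68.92 to 75) lay between the starts. The share was 67.78%, 74.38% and 72.33% in replicates 1, 2 and 3 (71.5% ± 3.38, SD, n = 3). Summits upstream of the nearest start were common at both kinds of promoter: 72.54% of members and 68.43% of single-direction summits lay upstream of it. In replicates 1, 2 and 3 the share was 67.67%, 73.95% and 72.51% of members, against 65.84%, 71.31% and 70.02% of single-direction summits (difference 2.32 ± 0.43 percentage points, SD, n = 3, exact sign-flip permutation p = 0.25, 0.266 after Benjamini-Hochberg adjustment over 17 comparisons). Summits beyond a start were split evenly, with 111 on the side of the minus-strand gene and 122 on the side of the plus-strand gene. Most of the summits beyond a start were close to it: 146 lay within 100 bp, 17 at 101 to 200 bp, 14 at 201 to 500 bp and 56 at 501 to 1000 bp. A summit inside a gene with further start sites is given to the nearest of these, so the zones beyond the pair are counted short. When only the start farthest upstream of each gene was used, the share between the starts was 62.73%.

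**Figure D1:**
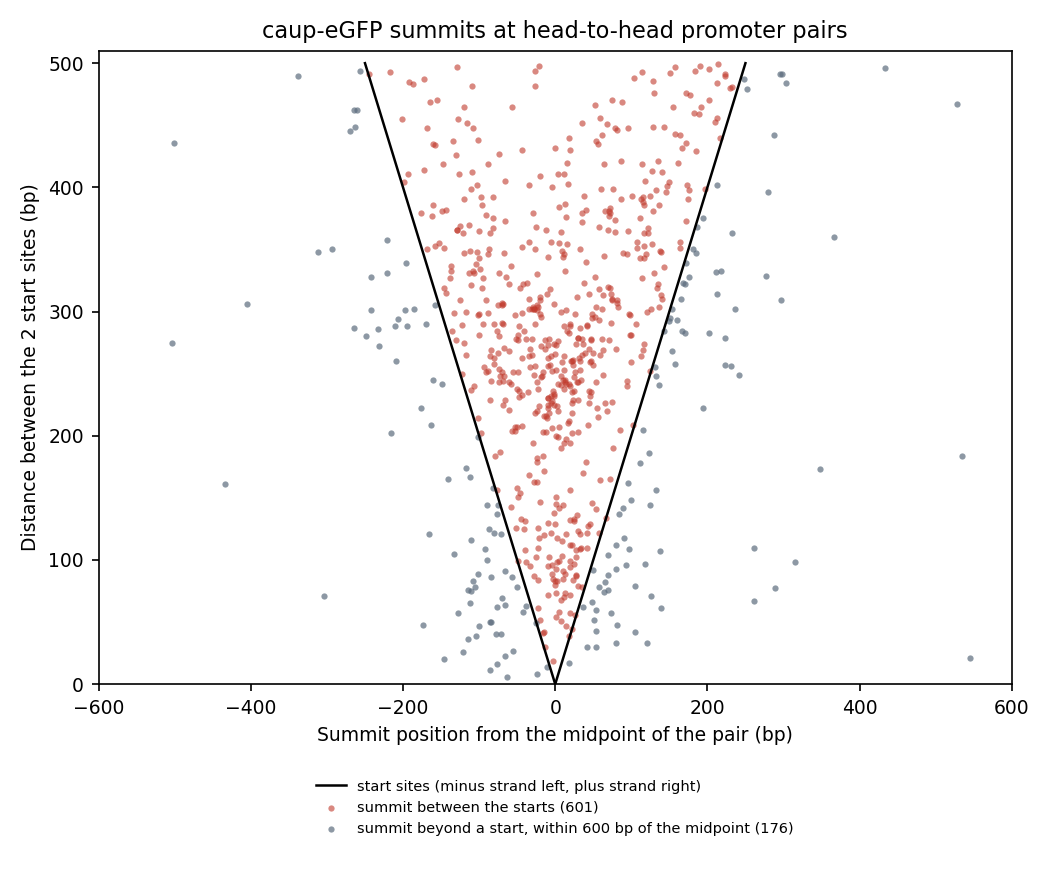
Position of each head-to-head member summit, in bp from the midpoint of its pair (x axis), against the distance between the 2 start sites in bp (y axis). The black lines are the start sites; the 601 red points lie between them, the grey points beyond them, and summits farther out than the axis are not drawn.

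The median distance from the midpoint was 75.25 bp over all head-to-head members, summits beyond a start included. It was 76.5, 71.5 and 74.5 bp in replicates 1, 2 and 3. Within the gap the summits were spread out. In gaps of at least 150 bp, 152 of 511 summits (29.75%) lay in the stretch next to the minus-strand start, 203 (39.73%) in the middle stretch and 156 (30.53%) in the stretch next to the plus-strand start, the 3 stretches being of equal length. The summit of a given peak moved by a median SD of 24 bp between the 3 replicates at 797 members, against 22.93 bp at 2430 single-direction summits. This spread is short of most gaps, whose median was 278 bp over head-to-head members, but not of the narrowest ones.

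The width of the gap went with where the summit lay. With starts 0 to 99 bp apart, 46 of 116 summits were between them (39.66%, Wilson interval 31.22 to 48.75). The share was 64.81% of 108 summits at 100 to 199 bp, 84.25% of 254 at 200 to 299 bp (79.27 to 88.22), 78.08% of 219 at 300 to 399 bp and 72.99% of 137 at 400 to 500 bp. A narrow gap leaves little room for a summit, and the part of gap width alone was not tested. The narrowest gap of a member was 6 bp, between CG3032 and CG4593, where the summit (signal value 449.3) lay 61 bp beyond the start of CG3032. The widest was 499 bp, at ATPsynCF6, which encodes a subunit of ATP synthase, and Sec13, a coat protein of vesicles, and also at dgt5 and CG8545.

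Occupied pairs were found at every gap width. Member summits lay at 768 of 2007 annotated pairs, which is 38.3% (Wilson interval 36.16 to 40.41). The share was 40.31%, 41.01% and 35.97% in replicates 1, 2 and 3. For the shares by gap, each pair was classed by the smallest gap between starts of its 2 genes. The summits above were classed by their nearest start and its partner, so the 2 series differ. At 0 to 99 bp, 139 pairs had a member but 116 summits were counted. By smallest gap the share was 33.41% of 416 pairs at 0 to 99 bp and 29.89% of 348 at 100 to 199 bp. It was 43.5% of 531 at 200 to 299 bp, 43.31% of 381 at 300 to 399 bp and 38.43% of 255 at 400 to 500 bp. The Wilson interval was 39.35 to 47.75 for the class at 200 to 299 bp and 25.32 to 34.89 for that at 100 to 199 bp. These classes had the highest and the lowest share, and the intervals cover counting error only. Differences between the classes were not tested over replicates. Across replicates, 585 pairs had a member in all 3 lists and 998 in at least 1. Of the 768 pairs of the optimal set, 577 were among those found in all 3 replicates and 4 were found in no replicate's list.

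Most pairs carried a single summit. There were 680 pairs with 1 member summit, 81 with 2 and 7 with 3, counted over all starts of the 2 genes. Of the 88 pairs with more than 1, 75 had a summit between the starts and 3 had summits beyond both ends. Elp6, a subunit of the Elongator complex, and Dic1, a mitochondrial dicarboxylate carrier, shared 3 summits: 1 between the starts with a signal value of 1472.6, and 2 on the side of Dic1 with 350.1 and 216.2. The regions with 1472.6 and 350.1 overlapped, and in replicate 3 both summits lay in the region ranked 140. Pax, which encodes the focal adhesion protein paxillin, and Alp12 also had 3 summits, but not at the same starts. Summits of 1522.5 and 310.3 lay between starts 498 bp apart. Their regions overlapped, and both summits lay in the regions ranked 241, 166 and 174 in replicates 1, 2 and 3. The replicates thus did not list them as separate regions. The summit of 335.7 was nearest to another start of Alp12, where the transcripts of the 2 genes overlap at their starts. CG42637 and SREBP, a regulator of lipid synthesis, had 321.0 between the starts and 893.3 and 597.6 beyond the start of SREBP. In the first 2 of these trios the strongest summit was in the gap, and in the last it was beyond the start of SREBP.

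Genes of divergent pairs had a summit near a start more often than other genes did. Within 1000 bp of a TSS, 44.9% of the 3878 paired protein-coding genes had a summit, against 20.9% of the 10067 unpaired ones and 27.6% of all 13945. The paired genes reached 47.24%, 47.91% and 42.52% in replicates 1, 2 and 3, and the unpaired genes 22.49%, 20.42% and 20.1%. Every replicate's share of paired genes was above the highest share of unpaired genes. The difference was 24.89 ± 2.53 percentage points (SD, n = 3, higher in 3 of 3 replicates, exact sign-flip permutation p = 0.25, adjusted p = 0.266). One summit in a gap counts for both of its genes, so the paired share is raised by construction. With a window of 200 bp the difference in the optimal set was 20.54 points, against 23.98 with 1000 bp. In replicates 1, 2 and 3 the smaller window gave 20.01, 23.35 and 19.47 points.

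Member peaks had higher signal values than single-direction peaks in every replicate, with broad overlap. Their signal value ran from 208.6 to 3541.1 with a median of 383.9, against a median of 343.2 and a highest value of 6495.7 at single-direction summits. In percentiles within a list, the member median was 57.27, 63.31 and 61.67 in replicates 1, 2 and 3, against 51.7, 51.29 and 52.01 for single-direction summits. The member median was above the other in each replicate, by 9.09 ± 3.27 (SD, n = 3, exact sign-flip permutation p = 0.25, adjusted p = 0.266). With a limit of 200 bp between starts, summits at wider divergent pairs counted as single-direction. The difference was then -2.48, 6.72 and 0.363 in replicates 1, 2 and 3 (exact sign-flip permutation p = 0.75). The replicates did not share a direction. That setting does not compare narrow pairs with single-direction promoters alone. The range of peaks was wide in both sets: 131 members (15.18%) were among the 605 strongest of all optimal peaks, against 11.92% of single-direction summits, and 58 members (6.721%) were among the 605 weakest, against 10.16%. Without the promoters of cytoplasmic ribosomal protein genes the medians were 58.54 and 51.94, and the difference was 4.004, 11.3 and 8.232 in replicates 1, 2 and 3.

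Members were also found in the replicates more often. The summit lay in the top lists of all 3 replicates for 602 members, or 69.76% (Wilson interval 66.61 to 72.73), against 63.61% of single-direction summits (61.72 to 65.45) and 62.7% of all optimal peaks. The optimal set was made from these replicates, and stronger peaks lie in the lists more often, so this share moves with the signal value. Summits of overlapping peaks can lie in the same replicate region. With overlapping peaks merged there were 812 members, and 70.94% of them lay in all 3 top lists. By replicate, 86.33%, 87.95% and 85.98% of members were in the top list, against 86.55%, 80.51% and 85.33% of single-direction summits; only replicate 2 set the 2 kinds apart by more than their counting error. The 3 members in no top list were those at Gen and Srp54k, at CG6686 and CG34163 and at PolrMT and CG14339, with signal values of 231.5, 221.2 and 216.5.

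**Figure D2:**
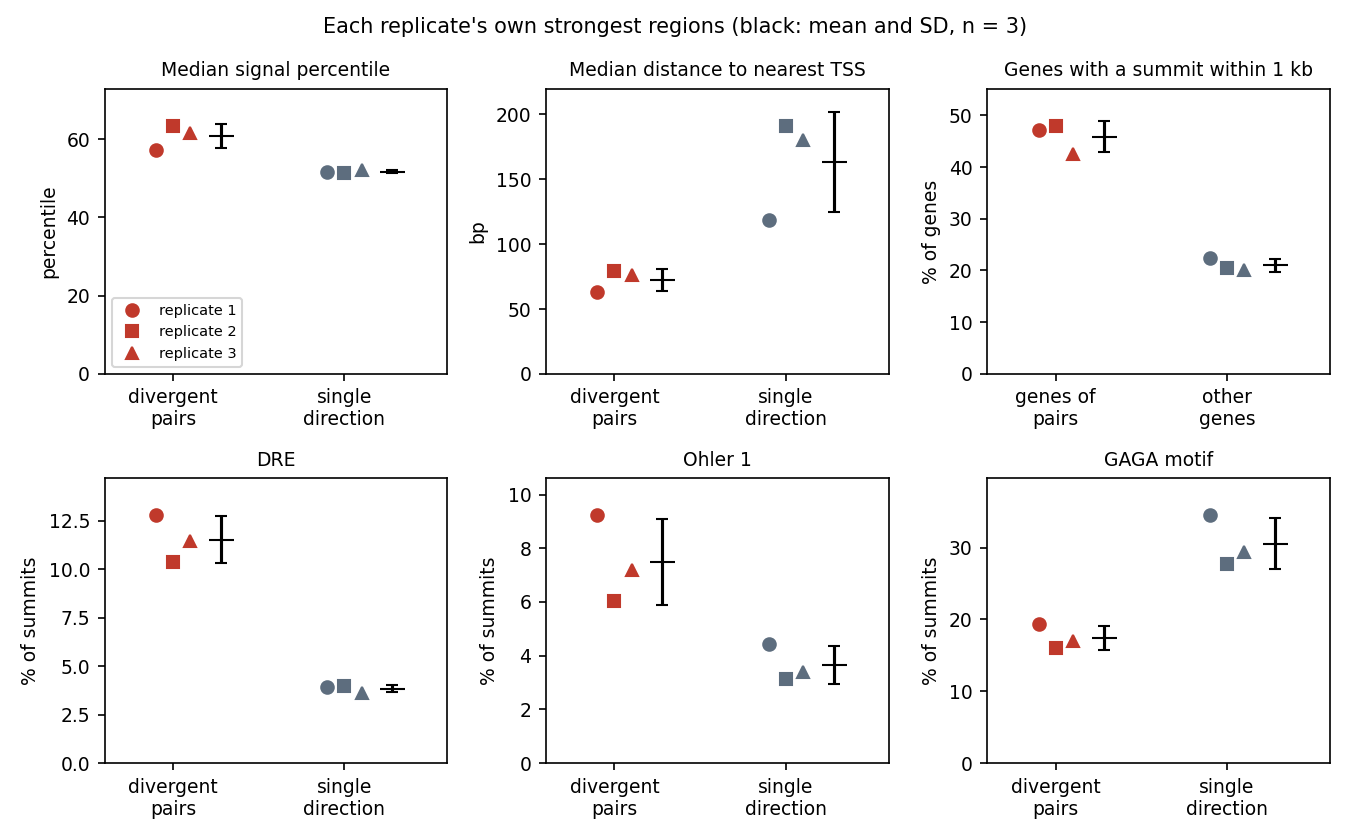
Values of each replicate's own 6056 strongest regions, with summits at divergent pairs in red and single-direction summits in grey (in the gene panel, paired and unpaired genes); the y axes give percentiles, bp or percent, and black marks are the mean and SD of 3 replicates. The 3 red points lie on 1 side of the 3 grey points in each of the 6 panels.

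Member summits lay closer to a start site. The median distance to the nearest TSS was 63, 79 and 76 bp for members in replicates 1, 2 and 3, against 119, 191 and 180 bp for single-direction summits. The difference was -90.67 ± 30.29 bp (SD, n = 3, lower in 3 of 3 replicates, exact sign-flip permutation p = 0.25, adjusted p = 0.266). Part of this follows from the rule, since a summit between starts at most 500 bp apart cannot be far from both. Among summits within 200 bp of a TSS, the medians in the optimal set were 65 bp for members and 64 bp for single-direction summits. This difference of 1 bp had the opposite sign. In replicates 1, 2 and 3 the difference was 5, -12 and 0 bp, with no shared direction (exact sign-flip permutation p = 1). The 2 sets differed in the summits beyond that distance: 90.27% of members and 57.25% of single-direction summits were within 200 bp.

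The strongest members stood at genes of varied function. The peak at Chro, a chromosomal protein, and Ssl1, a subunit of the general transcription factor TFIIH, had the highest signal value, 3541.1, and ranked 24, 12 and 12 in replicates 1, 2 and 3. Its summit lay 81 bp beyond the start of Chro. The peak between mRpS23, a mitochondrial ribosomal protein, and CenG1A, a regulator of Arf GTPases, reached 3408.1 and ranked 16, 24 and 18. All 10 of the strongest members were within the first 50 ranks of every replicate.

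The next members in order followed closely. RpS27, of the small ribosomal subunit, and Nup37, of the nuclear pore, shared a peak of 3342.4 whose summit was 3 bp from the start of RpS27. Tcs5 and CHMP2B, of the ESCRT machinery that remodels membranes, had 3085.3 with a summit 3 bp from the midpoint of a gap of 224 bp. Art3, an arginine methyltransferase, and mRpS10 had 3050.4 in a gap of 257 bp. The others were Fbw5 and CG9147 (2958.0), CG13390 and CG17294 (2941.4), CG11309 and CG7632 (2919.1), CG5611 and Mtl, a GTPase of the Rac family (2788.9), and Pdrg1 and Pal1 (2556.1). In 7 of these 10 the summit was between the starts.

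The members' genes were counted against 18 gene lists, and the background is that 39.53% of all 3878 paired genes (1533) belonged to a pair with a member summit. Lists were compared with this share only as counts. Cytoplasmic ribosomal protein genes stood far above it: 31 of the 34 that are paired (91.18%) were at a member pair, and 94.12%, 94.12% and 91.18% were in replicates 1, 2 and 3. The share was about as high beyond the pairs: of all 86 cytoplasmic ribosomal protein genes, paired or not, 77 (89.53%) had a summit within 1000 bp of a start, against 27.6% of all protein-coding genes. Their 36 summits had a median signal value of 1109.4, against 383.9 over all members. After RpS27, the strongest were the peak of RpL7, of the large subunit, and Ripalpha, which ranked 41, 48 and 66 with a signal value of 2452.5, and that of RpL14 and Nelf-E, a subunit of a factor that pauses RNA polymerase II, which ranked 42, 73 and 74 with 2307.6. The start of the ribosomal protein gene was the nearer of the 2 in 31 of these 36 summits.

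In the optimal set mitochondrial ribosomal protein genes and genes of the respiratory chain were above the background share. Genes for mitochondrial import were not. Mitochondrial ribosomal protein genes had 29 of 54 paired genes at a member pair (53.7%; 59.26%, 48.15% and 48.15% in the 3 replicates). The start of the mitochondrial ribosomal protein gene was the nearer in 7 of 31 summits, and in 11 of 36, 8 of 28 and 9 of 28 in replicates 1, 2 and 3. For cytoplasmic ribosomal protein genes the same count was 31 of 37, 31 of 39 and 31 of 37. The ranges of the 2 lists do not overlap. This count was not made over all paired genes, so neither list is set against a background. No test was made of the contrast, which was seen in the data first. Of the 3 strongest peaks of the list, those at CenG1A and at Art3 were nearer to the partner gene, and that of mRpL23 and CG9004 (2247.0) lay 59 bp from the start of mRpL23. Genes of the respiratory chain and ATP synthase had 21 of 39 (53.85%; 53.85%, 51.28% and 53.85% in the 3 replicates), led by ND-MWFE and TppII (678.1), ND-51 (671.0) and COX6B (624.2), subunits of complexes I, I and IV. Their own start was the nearer in 16 of 25 summits, and in 14 of 22, 13 of 22 and 12 of 26 in replicates 1, 2 and 3. Of 9 genes for import into mitochondria 3 were at a member pair (33.33%). In replicates 1, 2 and 3 this share was 55.56%, 33.33% and 33.33%. For all paired genes it was 41.65%, 42.42% and 37.18%, so import was above the background in replicate 1.

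Genes of membrane traffic had 30 of 55 (54.55%; 61.82%, 60% and 56.36% in the 3 replicates). Vps33B, of vesicle fusion, and the protease gene Fur1 shared a peak of 1157.7 at 0 bp from the midpoint, and alphaCOP, a vesicle coat protein, and CG13919 one of 1070.0. In the optimal set the other lists of the basic cell machinery were near or below the background. Translation factors had 9 of 23 (39.13%), with the peak of the translational repressor eIF4EHP at 2172.9, tRNA synthetases 7 of 21, the proteasome 8 of 24, RNA polymerases and general factors 15 of 47 and splicing 7 of 23. The nuclear pore had 3 of 13, DNA replication and repair 4 of 19 and chaperonin and heat shock proteins 2 of 10. In these small lists 1 gene moves the share by several points, and replicates differed from the optimal set. The tRNA synthetases had 42.86%, 47.62% and 42.86% in replicates 1, 2 and 3, against 41.65%, 42.42% and 37.18% of all paired genes. The nuclear pore had 46.15%, 23.08% and 15.38% in replicates 1, 2 and 3.

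Homeobox, cuticle and chemoreceptor genes are seldom paired, whether occupied or not, and signalling genes are paired about as often as others. Of 80 homeobox genes 2 are paired (2.5%), of 122 cuticle protein genes 4 (3.28%) and of 231 chemoreceptor and odorant-binding genes 23 (9.96%), against 27.81% of all protein-coding genes. Neither of the paired homeobox genes was at a member pair. Of 73 signalling genes 23 are paired (31.51%), and 39 of the 73 (53.42%) had a summit within 1000 bp of a start, against 27.6% of all protein-coding genes. Signalling genes had 8 of 23 paired genes at a member pair (34.78%), with low signal values: Ras85D, the fly Ras, and Rlb1 had 307.7, fu, a kinase of Hedgehog signalling, and CG6659 had 286.9, and mats, of the Hippo pathway, and Nop56 had 278.0. Chemoreceptor and odorant-binding genes had 1 of 23, which was Ir60e, where the summit (403.3) was 26 bp from the start of CG13585. Cuticle proteins had 1 of 4, again nearer to the partner gene. Histone genes had 1 of 88, His2Av with ball (620.2); the other histone genes lie mostly in near-identical repeats, where reads cannot be placed with certainty, so their count is uncertain.

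**Figure D3:**
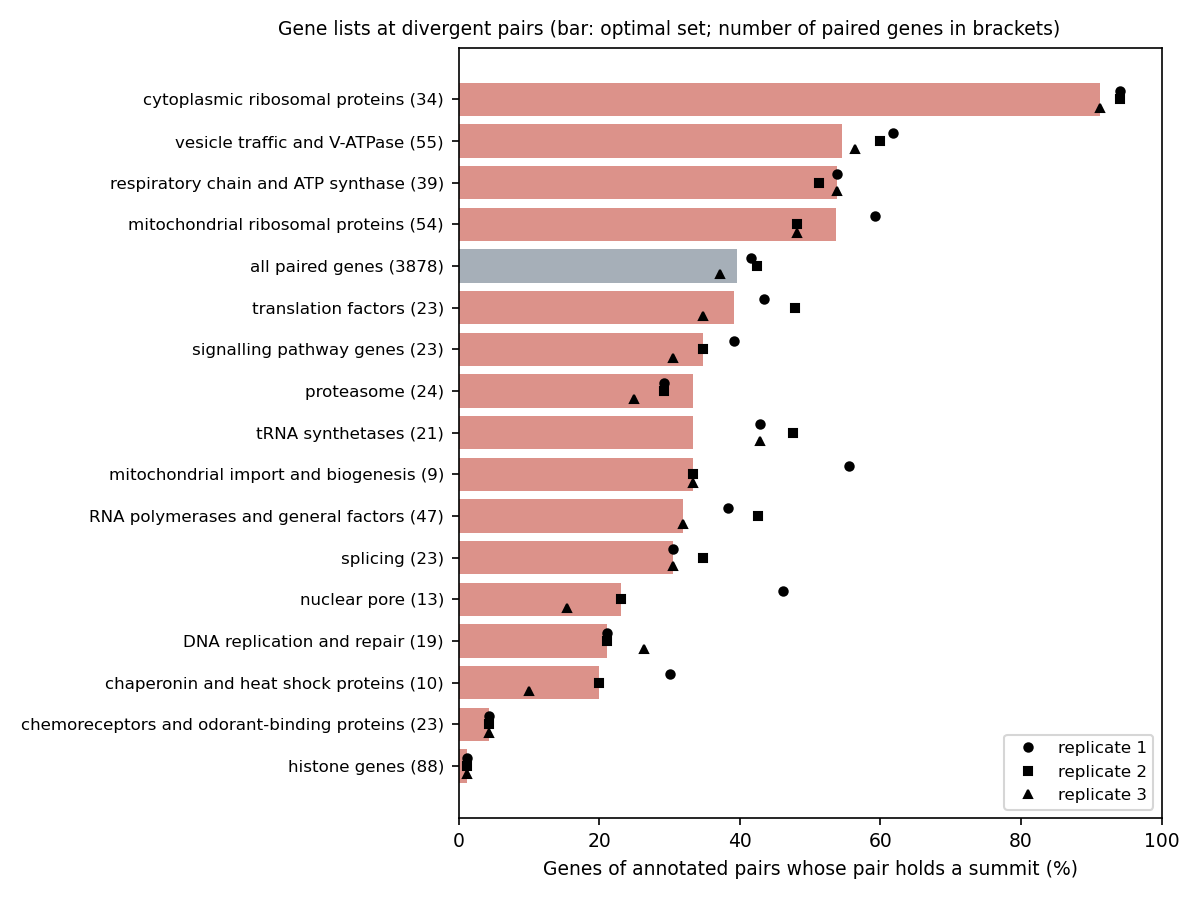
Share of the paired genes of each list whose pair held a summit, in percent (bars, optimal set; number of paired genes in brackets), with replicates 1, 2 and 3 as points; lists with fewer than 9 paired genes are not drawn. Cytoplasmic ribosomal protein genes reach 91.18%, against 39.53% of all paired genes (grey bar).

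The sequence within 100 bp of member summits differed from that at single-direction summits in 11 of 12 motifs in the same direction in all 3 replicates. Motifs were sought on both strands, and a match is only a match of letters. The share of windows of the same length around all 19252 protein-coding start positions is given as background. DRE (TATCGATA) was at 12.78%, 10.38% and 11.44% of member summits in replicates 1, 2 and 3, against 3.905%, 4.006% and 3.626% of single-direction summits and 6.45% of all start windows. The difference was 7.69 ± 1.26 percentage points. Ohler 1 (GGTCACAC) was at 9.222%, 6.054% and 7.178% of member summits, against 4.447%, 3.116% and 3.384% of single-direction summits and 5.68% of all start windows, a difference of 3.84 ± 0.92 points. For each of these 2 motifs the exact sign-flip permutation p was 0.25 and 0.266 after adjustment (n = 3). Member summits lie nearer to start sites, where these elements lie. Among summits within 200 bp of a TSS, the differences in the optimal set were 7.571 points for DRE and 2.377 points for Ohler 1. Without this limit they were 8.671 and 4.038 points in that set. Within 200 bp, replicates 1, 2 and 3 gave 8.165, 4.4 and 6.485 points for DRE. For Ohler 1 they gave 3.097, 0.6762 and 2.05 points. In the optimal set 108 members had DRE, 67 had Ohler 1 and 7 had both.

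A further 7 motifs were more frequent at members in all 3 replicates. CGATA, the letters of BEAF-32 sites, which also lie within DRE, was at 44.92% ± 2.20 of member summits and 31.85% ± 1.31 of single-direction summits (SD, n = 3 here and below), with 37.1% of all start windows. Ohler 7 (CAGCNCTG) was at 11.53% ± 0.82 against 6.21% ± 0.18, with 5.16% as background. ACACTG was at 21.5% ± 2.44 against 18.17% ± 0.70, with 14.2%. The E-box CAGCTG was at 17.01% ± 1.82 against 11.57% ± 0.98, with 13.4%, and Ohler 6 (GGTATTT) at 7.81% ± 0.93 against 6.51% ± 0.19, with 6.59%. TATAAA, the letters of the TATA box, was at 35.79% ± 2.15 against 28.84% ± 3.34, with 26.9%. TAATTA, the core of many homeodomain sites, was at 19.41% ± 2.38 against 12.24% ± 2.12, with 9.39%.

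GAGAG and TCAGT went the other way. GAGAG, the letters of GAGA factor sites, was at 17.45% ± 1.71 of member summits and 30.55% ± 3.52 of single-direction summits, with 25.0% as background. TCAGT, part of the Initiator, was at 27.84% ± 1.03 against 36.57% ± 2.19, with 43.4%. ACANNTGT, the palindrome that Iroquois proteins are known to bind, was at 11.06% ± 0.44 of member summits and 10.46% ± 0.80 of single-direction summits, with 8.33% of all start windows; it was higher at members in 2 of 3 replicates (exact sign-flip permutation p = 0.75, adjusted p = 0.75). The member windows were poorer in G and C, with a median of 36.15% ± 1.44 against 39.64% ± 2.30, and AT-rich motifs such as TATAAA and TAATTA move with base composition; its part in these differences was not tested.

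The motifs at members were then set against divergent pairs that had no summit, at the midpoints of head-to-head pairs. There DRE was as frequent with a summit as without: 11.9%, 11% and 11.24% of midpoints of occupied pairs in replicates 1, 2 and 3, against 10.43%, 11.18% and 11.12% of pairs with no summit within 1000 bp of a start (difference 0.471 ± 0.879, exact sign-flip permutation p = 0.75, adjusted p = 0.813 over 13 comparisons). Ohler 1 was less frequent at occupied pairs in all 3 replicates, at 5.84% ± 0.66 against 8.07% ± 0.37. The contrast of DRE and Ohler 1 between member and single-direction summits was thus not seen between occupied and unoccupied pairs. TCAGT was at 26.69% ± 0.29 of occupied pairs and 34.59% ± 0.14 of unoccupied ones. Ohler 7 was at 8.7% ± 0.44 against 5.43% ± 0.04, ACACTG at 17.77% ± 0.62 against 13.57% ± 0.44 and TAATTA at 23.23% ± 1.34 against 19% ± 1.14. CGATA was at 45.62% ± 1.17 of occupied pairs and 48.96% ± 0.91 of unoccupied ones, opposite in direction to its difference between member and single-direction summits, and TATAAA at 41.91% ± 1.01 against 39.13% ± 0.62. Each of these 7 differences had 1 direction in all 3 replicates (exact sign-flip permutation p = 0.25, adjusted p = 0.464). Occupied pairs had wider gaps, with a median of 259 bp against 232 bp for pairs without a member, so that a window around the midpoint reaches the start sites less often; the part of this in the differences was not tested. The palindrome ACANNTGT was at 11.15% ± 0.44 of occupied pairs and 10.72% ± 0.42 of unoccupied ones (exact sign-flip permutation p = 0.75, adjusted p = 0.813).

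**Figure D4:**
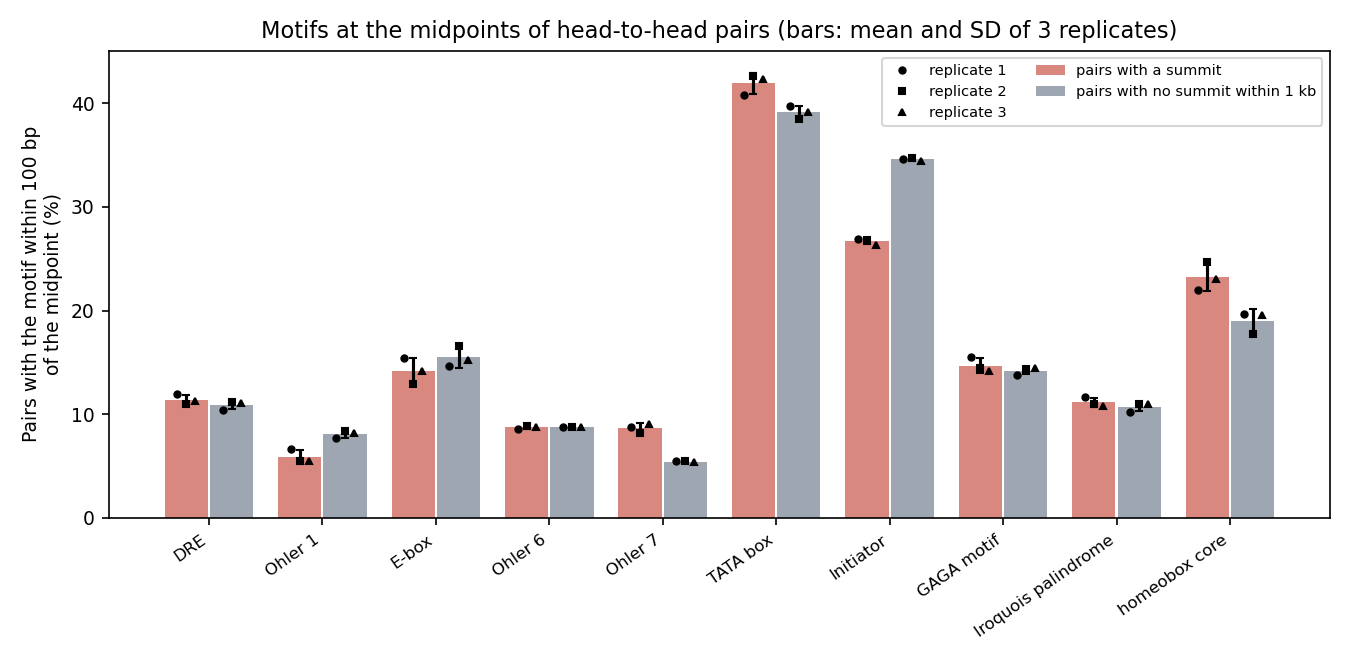
Share of head-to-head pairs with each motif within 100 bp of the midpoint, in percent, for pairs with a summit (red) and pairs with none within 1000 bp of a start (grey); bars and error bars are the mean and SD of 3 replicates, points the replicates, and 2 of the 12 motifs (CGATA and ACACTG) are not drawn. DRE stands at 11.38% and 10.91%, and the Initiator letters at 26.69% and 34.59%.

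Members with DRE had lower signal values than those without it. The difference in median percentile, with DRE minus without, was -11.51, -5.259 and -20.39 in replicates 1, 2 and 3 (-12.39 ± 7.61, SD, n = 3, exact sign-flip permutation p = 0.25). At single-direction summits it was -4.26, -11.16 and -3.971, and the ranges of the 2 sets overlap. DRE was not alone in this. In the optimal set the median percentile was 50.51 for members with DRE and 61.66 without it. It was 47.97 with Ohler 1 and 61.63 without it, and 50.91 with ACANNTGT and 62.02 without it. With CGATA, which lies within DRE, it was 53.1, and 65.34 without it. Other motifs went the other way. The median was 66.77 with TATAAA and 55.23 without it, 64.62 with TAATTA and 58.65 without it, and 62.39 with ACACTG and 59.69 without it. For all remaining motifs it was lower with the motif. Of the 108 members with DRE, 83 (76.85%) had a copy between the starts, and for Ohler 1 it was 50 of 67. The copies were not centred on the summit: their median distance from it was 46.5 bp for DRE and 48.5 bp for Ohler 1, in windows that reach 100 bp.

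The limits of the rule cut through neighbouring values. The member farthest from its start was at sbb and CG14502, 989 bp away with a signal value of 531.0. The first paired summit outside lay 1008 bp from a start, at Ifrd1 and CG8814 (270.2). The widest gap inside was 499 bp, and the first outside was 504 bp, at Cyp9f2 and CG5167 (218.9).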

How the data were processed

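ChIP-seq peak lists of 3 biological replicates, of their pooled alignments and of the optimal set from an irreproducible discovery rate (IDR) step were analysed on dm6. The authors called regions with the use of a control alignment, per notes deposited beside the lists. The aligner, the caller, tool versions and the cut-off of the IDR step were not given in the sources used here. The deposited signal value ranked regions within 1 list, and the deposited −log10 q value was not used. The optimal set equals the 6056 strongest pooled regions, and each replicate list holds 30000 regions. The dm3 lists were not used here.

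Start sites came from Ensembl release 115 and sequence from the release 6 RefSeq genome, with Python 3.11.15, pandas 2.3.3, numpy 2.4.6 and SciPy 1.17.1. Where several start sites were equally near (26 members), a paired protein-coding one was taken. Differences were tested over the 3 replicates, each with its own list, by an exact sign-flip permutation test, with Benjamini-Hochberg adjustment over each family of comparisons. Intervals are Wilson 95% intervals and cover counting error only; the depth is unknown. The code was tested on simulated pairs and summits. Summits per kb, planned beside the shares, are not given, because the zones beyond a start hold other start sites.

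The members, 18 gene lists, 12 motifs and tests were chosen with earlier results of these data known. Name patterns that had taken in unrelated genes were removed from the lists after values were seen. Named members follow a rule: the 10 of highest signal value, up to 3 for each list, the pairs with most summits, the narrowest and widest gaps and those beside each limit; the members in no top list were named after their values were seen. Summit distance, pair limits, annotation, peak sets, motif windows and the replicates whose top lists had to hold a peak were varied as alternatives. The motifs other than DRE and Ohler 1, the comparison at pair midpoints and the setting without ribosomal protein promoters were added after seeing the data.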

Additional observations from a re-analysis of the deposited data

How the results depend on the processing

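Over 17 alternative settings, 60 of 61 differences kept their direction in the optimal set; with 3 replicates none could pass the threshold of 0.05 under any setting. The exception was the median distance to the nearest TSS among summits within 200 bp, with a difference of 1 bp (65 bp at members, 64 bp at single-direction summits). This limit of 200 bp does not enter the share of genes with a summit, so the direction kept there was fixed in advance. That limit also gave 34.79% of promoter summits at divergent pairs and 78.5% of head-to-head summits between the starts. Starts at most 200 bp apart gave 239 members, 7.003% of promoter summits and 52% between the starts, and starts at most 1000 bp apart gave 34.54% of promoter summits. With only the start farthest upstream of each gene they were 31.65% and 62.73%. The stronger part of the peaks, 1 in 2 by signal value, gave 515 members, 27.75% of promoter summits and 92.43% in all top lists. Restricting the set to peaks that every replicate's top list held gave 27.07% of promoter summits. The share of members in all top lists was 66.51% when 50% of the peak had to be covered and 88.76% with lists 2 times as long. To leave out a replicate, only optimal peaks held by the top lists of both other replicates were kept. The optimal set itself, made from all 3 replicates, was not rebuilt. With each replicate left out in this way, the share of promoter summits ran from 25.68% to 26.9%. The share of members in both other lists ran from 75.67% to 77.52%.

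Some differences kept their direction but moved by over 1.5 times. In percentile the main 7.93 became 3.08 with starts at most 200 bp apart, where the replicates did not share a direction, and 4.31 with 1000 bp. In genes with a summit the main 23.98 points became 13.3 with 200 bp. Under the limit of 200 bp between starts, wider pairs counted on the single-direction or unpaired side. For DRE the main 8.67 points became 13.76 with 200 bp, 3.98 with motif windows of 50 bp to each side and 14.25 with 200 bp windows. For Ohler 1 the main 4.04 became 1.63 and 7.79 with these windows, 2.38 within 200 bp of a TSS and 2.48 with only the start farthest upstream.

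No paired analysis was possible because the series holds 1 group, so no 2 groups share replicate numbers. The sign-flip tests compare 2 kinds of summit within each replicate's own library. Depth is unknown, and binding below the reach of the full lists was not measured. A pair without a summit is one with none within 1000 bp of a start in the optimal set. For replicate values it is one with none among that replicate's strongest regions. Such a pair can still hold a weaker region: 434 of the 1128 pairs without an optimal summit (38.48%) had one in the pooled list.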

Other observations

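Genes of member pairs were shorter than single-direction genes with a summit, and longer than paired genes without a member. Their median length was 2464 bp over 1533 genes, against 5956 bp over 1916 single-direction genes with a summit, 2048 bp in paired genes without a member and 2166 bp over all protein-coding genes. Genes named only by a CG number made up 1320 of the paired genes, and 455 of them (34.47%) were at a member pair, against 39.53% of all paired genes. On the X chromosome 99 of 294 annotated pairs had a member (33.67%, Wilson interval 28.51 to 39.26), and on 3L 171 of 396 (43.18%, 38.39 to 48.1). On 2R the share was 35.06% (30.47 to 39.96), on 2L 37.12% and on 3R 40.45%, and on chromosome 4 it was 2 of 7 pairs. The median signal percentile of members was 50.47 on the X and 64.13 on 3L, with 58.72 on 2R, 60.16 on 3R and 61.87 on 2L. Of the 1128 pairs without an optimal summit within 1000 bp of a start, 434 (38.48%) had a weaker region of the pooled list there.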
